A study of Mus musculus with 3 samples.

Results

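Hepcidin is the liver hormone that controls how much iron enters the blood. The mouse carries 2 hepcidin genes side by side, Hamp and Hamp2. Both were followed here together with 8 genes that sense, carry, export or store iron: Bmp6, Hfe2, Tfr2, Tfrc, Trf, Slc40a1, Fth1 and Ftl1. The genes were taken by name from the array's own gene annotation. Spots under the names given were found for 9 of the 10 genes, and Tfr2 was found under its older name Trfr2 through the transcript its probe was designed for. The 10 genes have 13 probes and 22 spots among the probes of 31870 gene symbols.

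RNA came from hepatocytes released by collagenase from livers of male wild-type C57BL/6 mice aged 22 weeks that had fasted overnight, and it was measured on 3 arrays, 1 for each group. The first group (anti-VLA-4) was fed a high-fat diet and injected with an antibody that blocks VLA-4, an integrin by which leukocytes attach to vessel walls. The second (HFD-IgG) was fed the same diet and injected with control IgG, and the third (SD) was fed a standard diet, with no injections listed. The diets ran for 16 weeks from 6 weeks of age, and the injections were given 2 times a week over the final 6 weeks. The number of mice behind an array is not stated.

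Hepcidin is secreted by hepatocytes and binds ferroportin, the iron exporter encoded by Slc40a1, which is then taken into the cell and degraded, so that less iron leaves the gut, macrophages and the liver. Hepatocytes raise hepcidin transcription when BMP6, made largely by the endothelial cells of the liver sinusoids, acts on BMP receptors with the co-receptor hemojuvelin, and when interleukin-6 acts through STAT3. HFE and transferrin receptor 2 report on iron-loaded transferrin, transferrin receptor 1 takes it up, and ferritin, a shell of heavy and light chains, stores the iron. Hamp encodes the hepcidin known to regulate iron in mice. The product of Hamp2 did not have this effect when it was overexpressed in mice.

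The copies are close neighbours, so the probes that tell them apart are shown first. The array has 1 probe of 60 bases for each, at chr7:31727490-31727549 for Hamp and chr7:31707520-31707579 for Hamp2, both on the minus strand of build mm9 as the files give it. Capitals mark the bases at which the probes differ, once the probes are set 1 base apart.
Hamp probe: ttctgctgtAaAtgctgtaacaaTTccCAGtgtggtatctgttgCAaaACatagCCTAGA
Hamp2 probe: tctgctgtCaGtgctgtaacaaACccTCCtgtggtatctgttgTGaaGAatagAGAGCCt
Of the 59 bases that overlap, 42 were identical (71.2%) and 17 differed, and the longest identical run was 14 bases. The differences lie in small clusters, such as T24A and T25C, counted from 1 at the 5′ end of the Hamp probe with the Hamp base first. How much of a signal came from the other copy was not tested.

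Hamp signal differed by less than 2-fold between the arrays. In each comparison of 2 arrays, the log2 difference of Hamp2 was higher than that of almost every gene measured on both. Signals are given as relative signal, the background-subtracted signal of a spot divided by the 75th percentile of all non-control spots on its array. Levels of different probes cannot be compared, since each probe has its own brightness. Hamp had a relative signal of 119.3 in anti-VLA-4 hepatocytes, 106.8 in HFD-IgG hepatocytes and 80.2 in SD hepatocytes. Hamp2 had a relative signal of 29.3 in anti-VLA-4 hepatocytes, 9.05 in HFD-IgG hepatocytes and 0.685 in SD hepatocytes. Both genes were brightest in anti-VLA-4 hepatocytes and dimmest in SD hepatocytes, and both were well above background on all 3 arrays.

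**Figure D1:**
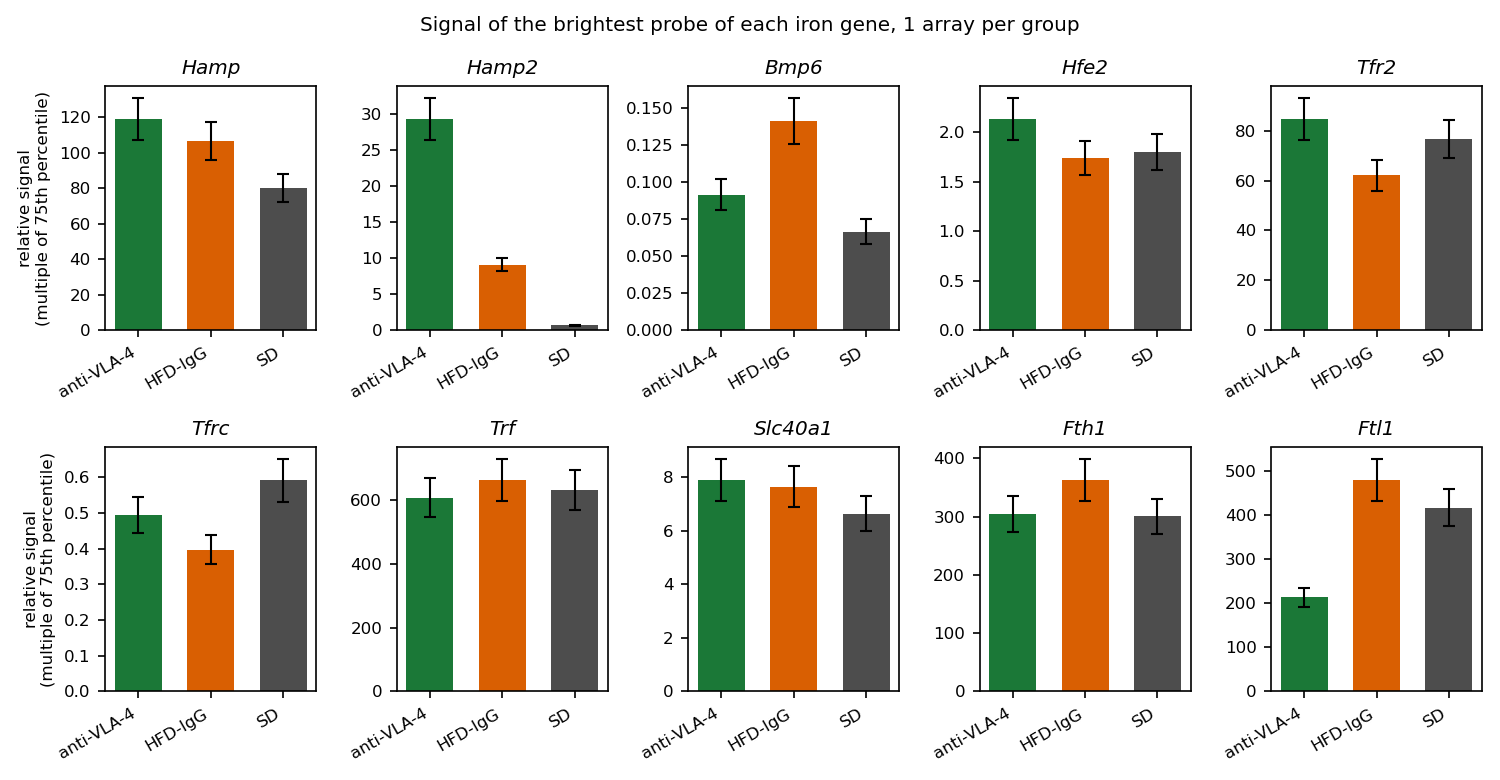
Relative signal (multiples of the array's 75th percentile, linear axis from 0, own scale in each panel) of the brightest probe of each of the 10 genes on the anti-VLA-4, HFD-IgG and SD arrays. Bars are single arrays and error bars are the scanner's error within an array. Hamp2 runs from 29.3 in anti-VLA-4 hepatocytes to 0.685 in SD hepatocytes, and Ftl1 is lowest in anti-VLA-4 hepatocytes at 213.9.

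No group has a second array, so none of the differences has a replicate check and no p-value is given. The number of arrays limits the precision, and the spread between mice, cell preparations and arrays is unknown. The scanner error is the error that the scanner software lists for each spot, about 10% of the signal. It gives 0.20 on the log2 scale for most differences between 2 arrays and covers only error within an array. Its share of the signal is nearly the same for all bright spots, and it is not a spread measured over repeats. A difference of at least 2-fold is used as a rule of size. The SD and HFD-IgG arrays lay on 1 slide and the anti-VLA-4 array on another, which means that antibody and slide cannot be told apart. Markers of other liver cells also differed between the arrays. The summed relative signal of 16 Kupffer cell and macrophage markers was 58.2 in anti-VLA-4 hepatocytes, 77.2 in HFD-IgG hepatocytes and 11.6 in SD hepatocytes. That of 16 sinusoidal endothelial markers was 40.6 in anti-VLA-4, 69.2 in HFD-IgG and 16.9 in SD hepatocytes, and that of 12 stellate cell markers was 16.3 in anti-VLA-4, 32.9 in HFD-IgG and 3.46 in SD hepatocytes. Among neutrophil markers, S100a9 had 1.77 in anti-VLA-4, 0.383 in HFD-IgG and 0.217 in SD hepatocytes, and S100a8 had 0.419 in anti-VLA-4, 0.102 in HFD-IgG and 0.0369 in SD hepatocytes, which is the order of arrays of Hamp2. These 2 were 4.62-fold and 4.09-fold higher for anti-VLA-4 against HFD-IgG. The 9 neutrophil and monocyte markers summed to 62.9 in anti-VLA-4, 72.2 in HFD-IgG and 68.0 in SD hepatocytes. Most of that sum is Csf3r, with 58.3 in anti-VLA-4, 69.7 in HFD-IgG and 66.2 in SD hepatocytes. For anti-VLA-4 against HFD-IgG, 2 of the 9 were at least 2-fold higher, 6 lay between, and 1, Ccr2, was 2.87-fold lower. The part of other cells in the iron gene values was not tested. The 16 hepatocyte markers were all well above background on each array and summed to between 5793 and 6369. A sum is set mostly by its brightest probes. For HFD-IgG against SD, 8 of the 16 lay above 0 and 8 below, and 1, Cps1, was 2.20-fold lower. For anti-VLA-4 against SD, 5 lay above 0 and 11 below, all by less than 2-fold.

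For HFD-IgG against SD, 2 of the 10 genes were at least 2-fold higher, Hamp2 and Bmp6, and 0 were at least 2-fold lower (1, Tfr2, under normexp background correction). Over all 22002 genes compared, 22.9% were at least 2-fold different and 20.4% were at least 2-fold higher, so the count among the iron genes, 20.0%, lies near that of all genes. Of the 8647 bright genes, with a relative signal over 1 on either array, 6.2% differed by at least 2-fold and 4.27% were higher. Hamp2 is among the bright genes and Bmp6 is not. The share of all genes higher moved with the purine bases (A and G) of the probe. It was 8.24% where the probe holds up to 40% purines and 46.9% over 60%. The probes of Hamp2 and Bmp6 hold 48.3% and 45.0% purines, and over 40 and up to 50% the share was 12.1%. The part of base composition was not tested. The median log2 difference of the 10 genes was 0.20, beside -0.05 over all genes measured on both arrays. Diet and injection differed together here.

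For anti-VLA-4 against HFD-IgG, Hamp2 was at least 2-fold higher and Ftl1 at least 2-fold lower. Over all 22589 genes compared, 18.4% were at least 2-fold different, 1.9% higher and 16.5% lower. Of its 8562 bright genes, among which both lie, 2.1% differed by at least 2-fold, 0.806% higher and 1.3% lower. The median log2 difference of the 10 genes was 0.10, beside -0.03 over all genes. For anti-VLA-4 against SD, Hamp2 alone of the 10 genes was at least 2-fold different, and it was higher, beside 11.4% of 20334 genes different, 7.98% higher and 3.39% lower. Of 8575 bright genes 4.89% differed and 3.34% were higher. The median of the 10 genes was 0.19, beside -0.04 over all genes. In this last comparison diet, injection, antibody and slide all differed. The 3 comparisons share arrays and are not independent of each other.

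**Figure D2:**
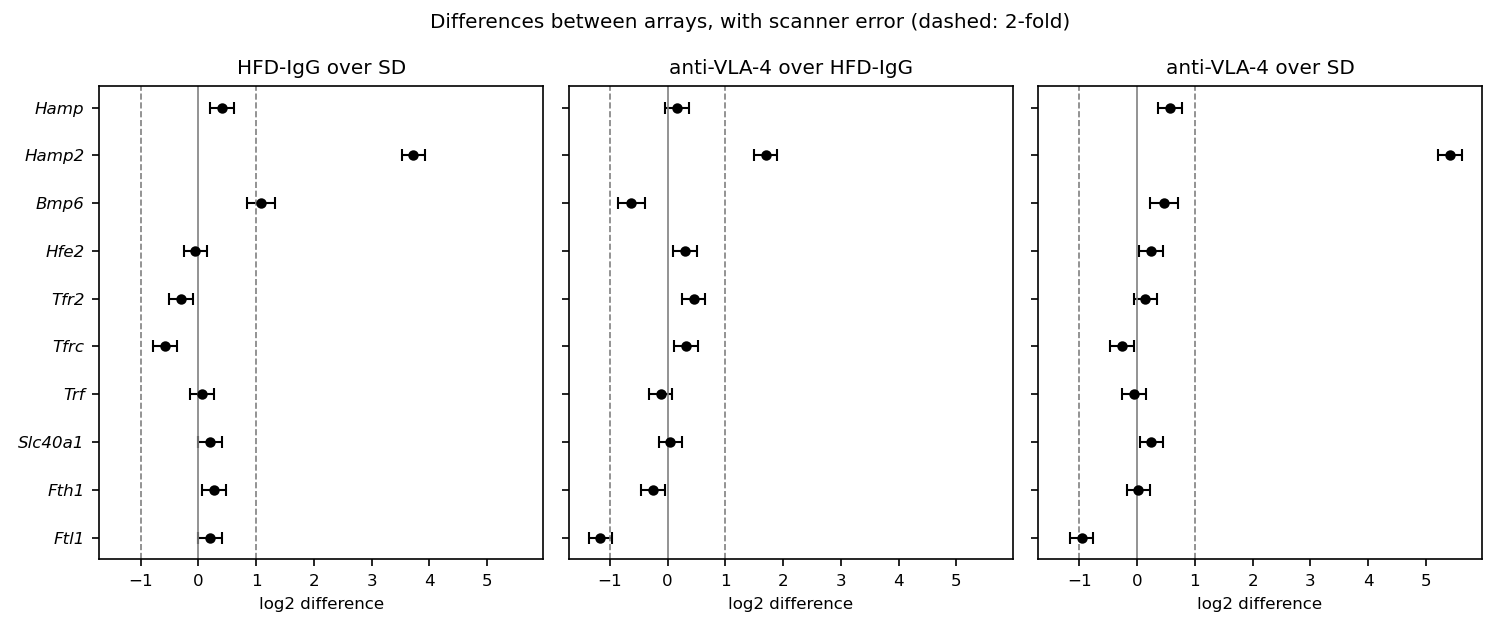
Log2 difference of relative signal for each of the 10 genes (rows), for HFD-IgG over SD, anti-VLA-4 over HFD-IgG and anti-VLA-4 over SD. Points are single differences between 2 arrays, bars the scanner error within an array, and dashed lines mark 2-fold. Hamp2 lies at 3.72, 1.69 and 5.42, Bmp6 passes the 2-fold line only in HFD-IgG over SD, and Ftl1 only in anti-VLA-4 over HFD-IgG.

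Hamp2 was 13.2-fold higher in HFD-IgG hepatocytes than in SD hepatocytes, a log2 difference of 3.72 ± 0.20 (scanner error). Of 17288 genes measured on both arrays, 52 had a higher difference. Hamp2 was a further 3.24-fold higher in anti-VLA-4 hepatocytes than in HFD-IgG hepatocytes (1.69 ± 0.20), and 31 of 18259 genes had a higher difference. Against SD the anti-VLA-4 array was 42.8-fold higher (5.42 ± 0.20). In that comparison 1 of 17504 genes had a higher difference, so the Hamp2 signal differed between these arrays more than that of nearly every gene measured. Over 8 other ways of processing the arrays the 3 log2 differences ranged from 2.87 to 3.87, from 1.65 to 1.80 and from 4.67 to 5.51, all at least 2-fold in the same direction. Hamp2 has a single probe, so the filters, the mean over probes and the deposited table returned the reported values by construction. Only the scalings and normexp background correction could move them.

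Hamp was 1.33-fold higher in HFD-IgG hepatocytes than in SD hepatocytes (0.41 ± 0.20), 1.12-fold higher in anti-VLA-4 hepatocytes than in HFD-IgG hepatocytes (0.16 ± 0.20) and 1.49-fold higher in anti-VLA-4 hepatocytes than in SD hepatocytes (0.57 ± 0.20). None of these reached 2-fold, and the second lay within the scanner error. With normexp background correction the first turned to -0.23. Of the bright genes measured on both arrays, 89.7%, 71.3% and 92.2% had a lower difference than Hamp, in the order of these comparisons. The 2 hepcidin genes had the same order of arrays and differed in the size of the differences.

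The patterns of the 2 genes were set against those of 11910 named genes well above background on all 3 arrays, by the Euclidean distance over the log2 differences HFD-IgG over SD and anti-VLA-4 over SD. The genes closest to Hamp were Rapgef2, Nfe2l2 and Tmem184c, at distances of 0.0055, 0.012 and 0.0124, and 2135 genes lay within 0.5. The genes closest to Hamp2 were Cyp2b9 at 0.66, Cfd at 1.41 and Ly6c1 at 1.62, and 0 genes lay within 0.5. Cyp2b9 encodes a liver cytochrome P450, and its log2 differences were 3.83 for HFD-IgG over SD and 4.76 for anti-VLA-4 over SD. Each pattern rests on 3 arrays.

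**Figure D3:**
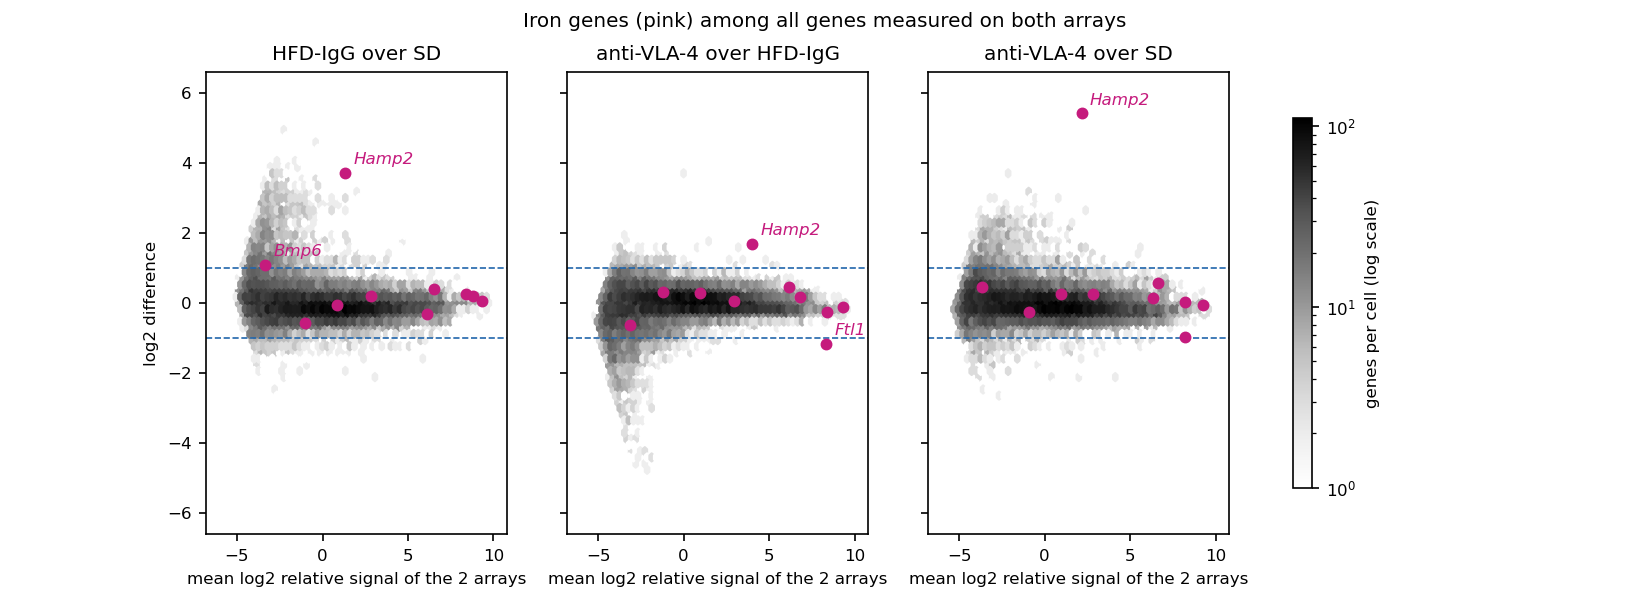
Log2 difference against mean log2 relative signal for all genes measured on both arrays of each comparison (grey cells, darker for more genes on a log scale), with the 10 iron genes in pink and those at least 2-fold different named. Dashed lines mark 2-fold. Hamp2 lies far above genes of like signal, at 5.42 in anti-VLA-4 over SD, while Bmp6 in HFD-IgG over SD (1.09) lies among the many dim genes that were higher.

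The stretches before the 2 genes are shown because BMP and STAT3 signals are known to act on the hepcidin promoter near the start. They hold the 250 bases before the transcription start from RefSeq on GRCm38.p6, at chr7:30944030-30944279 for Hamp and chr7:30924182-30924431 for Hamp2, minus strand. Both strands were searched for GGCGCC, the core of the BMP-responsive element, and for TTCTTGGAA, the STAT3 site, and capitals mark the matches, which did not overlap.
Hamp promoter: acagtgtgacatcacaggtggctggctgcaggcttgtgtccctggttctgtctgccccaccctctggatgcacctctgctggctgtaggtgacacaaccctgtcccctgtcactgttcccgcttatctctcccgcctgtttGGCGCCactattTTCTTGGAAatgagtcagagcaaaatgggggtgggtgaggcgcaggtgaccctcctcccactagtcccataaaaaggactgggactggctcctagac
Hamp2 promoter: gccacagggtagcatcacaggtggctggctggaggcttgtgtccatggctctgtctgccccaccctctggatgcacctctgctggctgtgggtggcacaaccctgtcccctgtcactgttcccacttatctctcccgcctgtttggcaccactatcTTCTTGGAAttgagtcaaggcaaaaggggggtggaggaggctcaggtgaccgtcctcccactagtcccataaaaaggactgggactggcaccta
Of 247 aligned bases, 227 were identical (91.9%). TTCTTGGAA was found in both, beginning 97 bases before the Hamp start and 94 bases before the Hamp2 start, and in 0.365% of 32851 mouse promoters of the same length. GGCGCC was found in the Hamp window, 109 bases before the start, but not in that of Hamp2, and in 9.59% of the promoters. The matching segment of Hamp2 differs by G4A, counted from 1 at the 5′ end of GGCGCC with the Hamp base first. A match describes the letters and is not a measured binding site.

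Among the signals upstream of hepcidin, Bmp6, the ligand, was dim. Its relative signal was 0.0914 in anti-VLA-4 hepatocytes, 0.141 in HFD-IgG hepatocytes and 0.0663 in SD hepatocytes (probe at chr13:38591479-38591538, mm9). The HFD-IgG array was the highest, 2.13-fold above SD (1.09 ± 0.24). The anti-VLA-4 array was 1.55-fold below HFD-IgG (-0.63 ± 0.23) and 1.38-fold above SD (0.46 ± 0.25). With quantile scaling the HFD-IgG difference from SD was 0.31, and with cyclic loess 0.83, so Bmp6 was then less than 2-fold different. The order of its 3 arrays was that of the summed sinusoidal endothelial, Kupffer cell and macrophage, and stellate cell markers given above. It was also that of the share of spots well above background, 66.5% in HFD-IgG, 62.4% in anti-VLA-4 and 57.3% in SD hepatocytes. The part of these cells in the Bmp6 values was not tested. In RNA from a mixed preparation, fewer cells of a type and less RNA per cell cannot be told apart.

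Hfe2, now called Hjv, encodes hemojuvelin, the BMP co-receptor of hepatocytes, and its probe lies on chromosome 3. It had a relative signal of 2.14 in anti-VLA-4 hepatocytes, 1.74 in HFD-IgG hepatocytes and 1.80 in SD hepatocytes. Tfr2, the transferrin receptor that takes part in iron sensing, lies on chromosome 5 and had 84.9 in anti-VLA-4 hepatocytes, 62.3 in HFD-IgG hepatocytes and 76.8 in SD hepatocytes. For both genes the anti-VLA-4 array was the highest. The Hfe2 values of HFD-IgG and SD differed by less than the scanner error, as did the Tfr2 values of anti-VLA-4 and SD (0.14 ± 0.20). The largest of their differences, that of Tfr2 for anti-VLA-4 over HFD-IgG, was 0.45 ± 0.20, or 1.36-fold. With normexp background correction Tfr2 for HFD-IgG over SD was -1.09, against -0.30 ± 0.20. For anti-VLA-4 over SD it turned to -0.39, so SD was then the highest array.

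Tfrc encodes transferrin receptor 1, the main route of transferrin iron into cells, and has 3 probes on chromosome 16. The brightest is printed 10 times on each array. Its mean relative signal was 0.494 in anti-VLA-4 hepatocytes, 0.397 in HFD-IgG hepatocytes and 0.591 in SD hepatocytes. The 10 spots ran from 0.463 to 0.553 in anti-VLA-4 hepatocytes, from 0.340 to 0.470 in HFD-IgG hepatocytes and from 0.515 to 0.654 in SD hepatocytes. The spots of HFD-IgG and SD did not overlap, while those of the anti-VLA-4 array overlapped with both. The spots on an array share 1 RNA sample and are not replicates of a group. How often the spots of other probes overlap between these arrays was not counted.

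The second Tfrc probe had the same order of arrays, with 0.217 in anti-VLA-4 hepatocytes, 0.133 in HFD-IgG hepatocytes and 0.242 in SD hepatocytes, and the third was not well above background on any array. HFD-IgG was 1.49-fold below SD by the brightest probe (-0.58 ± 0.21) and 1.82-fold below it by the second (-0.86 ± 0.22). For the brightest probe the scanner error is the mean of its single-spot errors and was not reduced for the number of spots. The anti-VLA-4 array was above HFD-IgG by 0.32 ± 0.21 with the brightest probe and 0.70 ± 0.22 with the second. With normexp background correction the differences of the brightest probe were 0.11 for HFD-IgG over SD, -0.02 for anti-VLA-4 over HFD-IgG and 0.09 for anti-VLA-4 over SD, so its direction turned in each. Tfrc is also among the erythroid markers, whose summed relative signal was 16.7 in anti-VLA-4 hepatocytes, 15.1 in HFD-IgG hepatocytes and 11.7 in SD hepatocytes. Most of that sum is Alas2, with 14.9 in anti-VLA-4, 13.3 in HFD-IgG and 9.09 in SD hepatocytes. The hemoglobin genes ran the other way, with Hba-a1 at 0.526 in anti-VLA-4, 0.388 in HFD-IgG and 1.1 in SD hepatocytes and Hbb-bt at 0.232 in anti-VLA-4, 0.222 in HFD-IgG and 0.495 in SD hepatocytes, both at least 2-fold lower than SD on each high-fat diet array. Epor was 2.48-fold higher for HFD-IgG against SD. The part of such cells in the Tfrc values was not tested.

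Trf encodes transferrin, the iron carrier of blood plasma that hepatocytes secrete, and has 2 probes on chromosome 9. The brighter had 607.5 in anti-VLA-4 hepatocytes, 661.6 in HFD-IgG hepatocytes and 631.8 in SD hepatocytes, and none of its 3 differences exceeded the scanner error. Under normexp background correction they were -0.60 for HFD-IgG over SD and -0.61 for anti-VLA-4 over SD, a 1.51-fold and a 1.52-fold lower signal. Slc40a1, which encodes ferroportin, lies on chromosome 1 and had 7.88 in anti-VLA-4 hepatocytes, 7.63 in HFD-IgG hepatocytes and 6.63 in SD hepatocytes. Its largest difference, anti-VLA-4 over SD, was 0.25 ± 0.20. Its direction turned under normexp, to -0.50 for HFD-IgG over SD and -0.33 for anti-VLA-4 over SD. Ferroportin is controlled by hepcidin as a protein, which an RNA array does not measure.

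Of the ferritin chains, the light one was lowest in anti-VLA-4 hepatocytes, while the heavy one differed little. Fth1, the heavy chain on chromosome 19, had a relative signal of 304.6 in anti-VLA-4 hepatocytes, 362.2 in HFD-IgG hepatocytes and 300.2 in SD hepatocytes. Ftl1, the light chain (probe at chr7:52713309-52713368, mm9), had 213.9 in anti-VLA-4 hepatocytes, 479.1 in HFD-IgG hepatocytes and 416.5 in SD hepatocytes. Fth1 was within 1.21-fold in each comparison, while under normexp it was at -0.47 for HFD-IgG over SD and -0.58 for anti-VLA-4 over SD. Ftl1 was 2.24-fold lower in anti-VLA-4 hepatocytes than in HFD-IgG hepatocytes (-1.16 ± 0.20), with 949 of 18259 genes lower still, and 1.95-fold lower than in SD hepatocytes (-0.96 ± 0.20). For HFD-IgG over SD it was 0.20 ± 0.20, or -0.63 under normexp.

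Among the bright genes 67 of 8550 had a lower difference than Ftl1 for anti-VLA-4 over HFD-IgG. With normexp background correction this difference was -0.90, less than 2-fold. With quantile scaling, cyclic loess and centring on bright probes it stayed at least 2-fold lower. The share of genes at least 2-fold lower in this comparison moved with the bases of the probe. It was 3.78% where the probe holds up to 40% purines and 7.08% over 40 and up to 50%. It was 19.4% over 50 and up to 60%, and 46.7% over 60%. For anti-VLA-4 over SD the share higher was 8.13% at up to 40% purines and 7.7% over 60%. The Ftl1 probe holds 58.3% purines and the Hamp2 probe 48.3%, and the part of base composition was not tested. Ftl2, a close copy of Ftl1 named here after its values were seen, differed by -0.37 for anti-VLA-4 over HFD-IgG and -0.63 for anti-VLA-4 over SD. How the Ftl1 signal divides between copies is uncertain.

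A further 90 genes in 3 lists were counted: regulation of hepcidin, transport of iron and heme, and sensing, storage and use of iron. For HFD-IgG against SD, 13 of 83 genes compared were higher by at least 2-fold and 2 were lower, beside 20.4% and 2.41% of all genes. For anti-VLA-4 against HFD-IgG, 2 of 85 were higher and 5 lower, beside 1.9% and 16.5%. For anti-VLA-4 against SD, 11 of 85 were higher and 1 lower, beside 7.98% and 3.39%. The medians of the 3 comparisons were -0.01, 0.03 and 0.10 on the log2 scale.

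**Figure D4:**
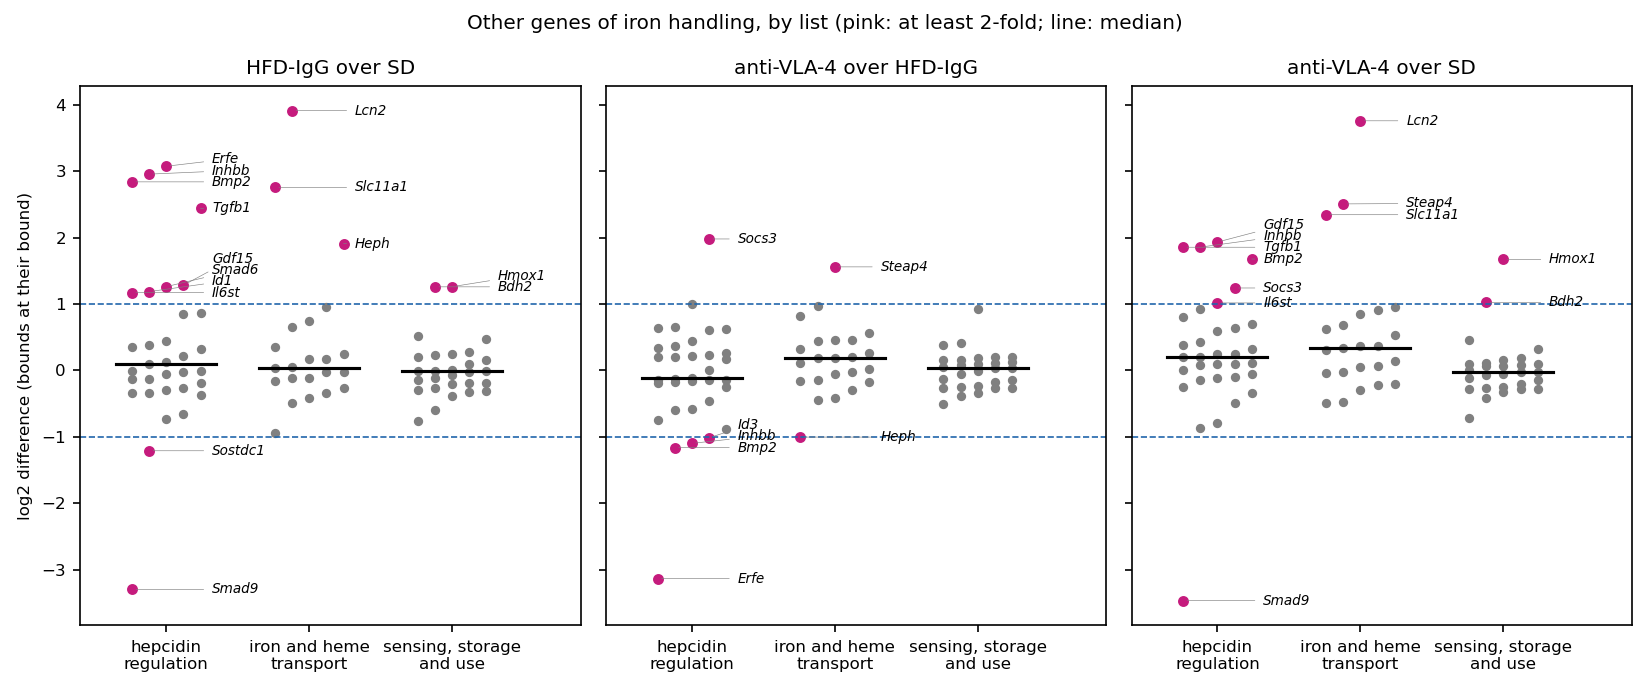
Log2 difference of each compared gene of the 3 iron lists, for the 3 comparisons. Points are single genes, with a bound plotted at its bound, pink points are at least 2-fold different and named, black lines are list medians and dashed lines mark 2-fold. Most named genes lie above 0 against SD, with Lcn2 highest at 3.91 and 3.76. The list of sensing, storage and use has 0 of 28 genes at least 2-fold different in anti-VLA-4 over HFD-IgG. Over all genes this share was 18.4%, and over bright genes 2.1%.

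Of 33 genes in hepcidin regulation, 8 were at least 2-fold higher and 2 lower for HFD-IgG against SD. Over all genes these shares were 20.4% and 2.41%. For anti-VLA-4 against HFD-IgG, 1 of 34 was higher and 4 lower, beside 1.9% and 16.5%. For anti-VLA-4 against SD, 6 of 34 were higher and 1 lower, beside 7.98% and 3.39%. Bmp2, a second BMP that acts on hepcidin, had a relative signal of 1.17 in anti-VLA-4 hepatocytes, 2.61 in HFD-IgG hepatocytes and 0.365 in SD hepatocytes. Its log2 differences were 2.84 for HFD-IgG over SD, -1.16 for anti-VLA-4 over HFD-IgG and 1.68 for anti-VLA-4 over SD. Inhbb, which encodes the chain of activin B, had 0.420 in anti-VLA-4 hepatocytes, 0.90 in HFD-IgG hepatocytes and 0.116 in SD hepatocytes, and so the same order as Bmp2 and Bmp6. Bmp2 is itself on the list of sinusoidal endothelial markers. Of these, 14 of 16 were at least 2-fold higher in HFD-IgG hepatocytes than in SD hepatocytes, beside 20.4% of all genes. Kdr (1.02-fold) and Pecam1 (1.55-fold) were not. For anti-VLA-4 against HFD-IgG, 6 of 16 were at least 2-fold lower, beside 16.5% of all genes. The part of sinusoidal endothelial cells in the Bmp2 and Inhbb values was not tested. Under normexp background correction the anti-VLA-4 over HFD-IgG difference was -0.70 for Bmp2 and -0.64 for Inhbb, less than 2-fold.

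Of the genes known as targets of BMP signalling, named here after their values were seen, Id1, Id3, Smad6, Smad7 and Atoh8 had the HFD-IgG array highest and Id2 the anti-VLA-4 array. Id1 had 1.08 in anti-VLA-4 hepatocytes, 1.83 in HFD-IgG hepatocytes and 0.802 in SD hepatocytes. Smad6, which encodes an inhibitor of the pathway, had 0.212 in anti-VLA-4 hepatocytes, 0.389 in HFD-IgG hepatocytes and 0.162 in SD hepatocytes. Id1 and Smad6 were 2.28-fold and 2.40-fold higher for HFD-IgG against SD, while Id3 was 2.02-fold lower for anti-VLA-4 against HFD-IgG. Id1 was at 0.69 and Id3 at -0.72 after normexp background correction, and with quantile scaling Smad6 was at 0.91, all under 2-fold. Id2 had 17.4 in anti-VLA-4 hepatocytes, 11.4 in HFD-IgG hepatocytes and 11.5 in SD hepatocytes, with log2 differences of -0.01 for HFD-IgG over SD and 0.61 for anti-VLA-4 over HFD-IgG. The Smad7 difference for anti-VLA-4 over HFD-IgG, -0.15, lay within the scanner error, as did the Atoh8 difference for HFD-IgG over SD, 0.10. Which array is highest is therefore uncertain for Smad7 and Atoh8. Bambi was not well above background on any array.

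Socs3, an inhibitor that STAT3 induces, had 2.93 in anti-VLA-4 hepatocytes, 0.744 in HFD-IgG hepatocytes and 1.24 in SD hepatocytes. It was 3.94-fold higher for anti-VLA-4 against HFD-IgG (1.98) and 2.36-fold higher against SD (1.24). The difference from SD was 0.77 under normexp background correction. Stat3, named after its values were seen, had 18.2 in anti-VLA-4 hepatocytes, 9.12 in HFD-IgG hepatocytes and 10.4 in SD hepatocytes, and its difference for anti-VLA-4 over HFD-IgG was 0.997, just under 2-fold. Smad9, a transducer of BMP signals, was 9.83-fold lower in HFD-IgG hepatocytes than in SD hepatocytes (-3.30), and with normexp background correction its difference was -0.50. Erfe, the erythroid hormone that lowers hepcidin, had 0.0247 in anti-VLA-4 hepatocytes and 0.217 in HFD-IgG hepatocytes and was not well above background in SD hepatocytes. HFD-IgG was at least 8.43-fold above SD, although the mean over its probes gave a log2 difference of 0.74, and anti-VLA-4 was 8.78-fold below HFD-IgG (-3.13), or -0.68 with normexp background correction. Tgfb1, a cytokine of the TGF-beta superfamily, was at least 5.43-fold higher in HFD-IgG hepatocytes and at least 3.62-fold higher in anti-VLA-4 hepatocytes than in SD hepatocytes, where it was not well above background. The brightest list members with less than 2-fold differences were Creb3l3, a hepatocyte transcription factor, and Tmprss6, the protease that cleaves hemojuvelin. Their largest differences were -0.26 and 0.45, both for HFD-IgG over SD.

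In iron and heme transport, 3 of 22 genes were at least 2-fold higher for HFD-IgG against SD, beside 20.4% of all genes. For anti-VLA-4 against HFD-IgG, 1 of 23 was higher and 1 lower, beside 1.9% and 16.5%. For anti-VLA-4 against SD, 3 of 23 were higher, beside 7.98%. Lcn2, a protein that binds the iron carriers of bacteria, had 8.95 in anti-VLA-4 hepatocytes, 9.97 in HFD-IgG hepatocytes and 0.661 in SD hepatocytes. It was 13.5-fold higher in anti-VLA-4 hepatocytes and 15.1-fold higher in HFD-IgG hepatocytes than in SD hepatocytes. Steap4, a metalloreductase, had 2.76 in anti-VLA-4 hepatocytes, 0.935 in HFD-IgG hepatocytes and 0.485 in SD hepatocytes, and with Hamp2 shared the order of arrays and the 2-fold difference for anti-VLA-4 over HFD-IgG (1.56) and over SD (2.51).

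Slc11a1, the iron transporter of macrophage phagosomes, had 0.568 in anti-VLA-4 hepatocytes, 0.756 in HFD-IgG hepatocytes and 0.112 in SD hepatocytes. Of 16 markers of Kupffer cells and macrophages, 15 were above SD by at least 2-fold in HFD-IgG hepatocytes, beside 20.4% of all genes. The remaining marker, Cd163, was not well above background on any array. The part of Kupffer cells and macrophages in the Slc11a1 values was not tested. Heph, a ferroxidase, was at least 3.75-fold higher in HFD-IgG hepatocytes than in SD hepatocytes. It was 2.01-fold lower in anti-VLA-4 hepatocytes than in HFD-IgG hepatocytes. Quantile scaling took the first log2 difference to 0.85. The second was under 2-fold in 4 of 6 alternatives, at -0.30 with quantile scaling, -0.74 with cyclic loess, -0.46 with normexp and -0.15 with the mean over probes. Hp and Hpx, which encode the plasma proteins that bind hemoglobin and heme, were less than 2-fold different, with Hpx at 0.65 for HFD-IgG over SD, or -0.05 under normexp.

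In iron sensing, storage and use, 2 of 28 genes were at least 2-fold higher for HFD-IgG against SD and the same number for anti-VLA-4 against SD, with 0 lower. Of all genes, 20.4% and 7.98% were higher in these comparisons. Hmox1, the enzyme that frees iron from heme, had 3.22 in anti-VLA-4 hepatocytes, 2.42 in HFD-IgG hepatocytes and 1.01 in SD hepatocytes. Bdh2, a dehydrogenase reported to make a mammalian siderophore, had 9.57 in anti-VLA-4 hepatocytes, 11.2 in HFD-IgG hepatocytes and 4.70 in SD hepatocytes. Both were at least 2-fold above SD on each high-fat diet array. Under normexp background correction Bdh2 was less than 2-fold above SD on both (0.72 for HFD-IgG, 0.77 for anti-VLA-4), as was Hmox1 for HFD-IgG (0.79). Alas1, the first enzyme of heme synthesis in the liver, had 202 in anti-VLA-4 hepatocytes, 106 in HFD-IgG hepatocytes and 161 in SD hepatocytes and differed by less than 2-fold, as did Gpx4, which removes lipid peroxides. The Alas1 difference for HFD-IgG over SD was -0.60, or -1.32 under normexp background correction, and for anti-VLA-4 over HFD-IgG it was 0.93, or 1.21 under normexp and 1.08 with the mean over probes.

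**Figure D5:**
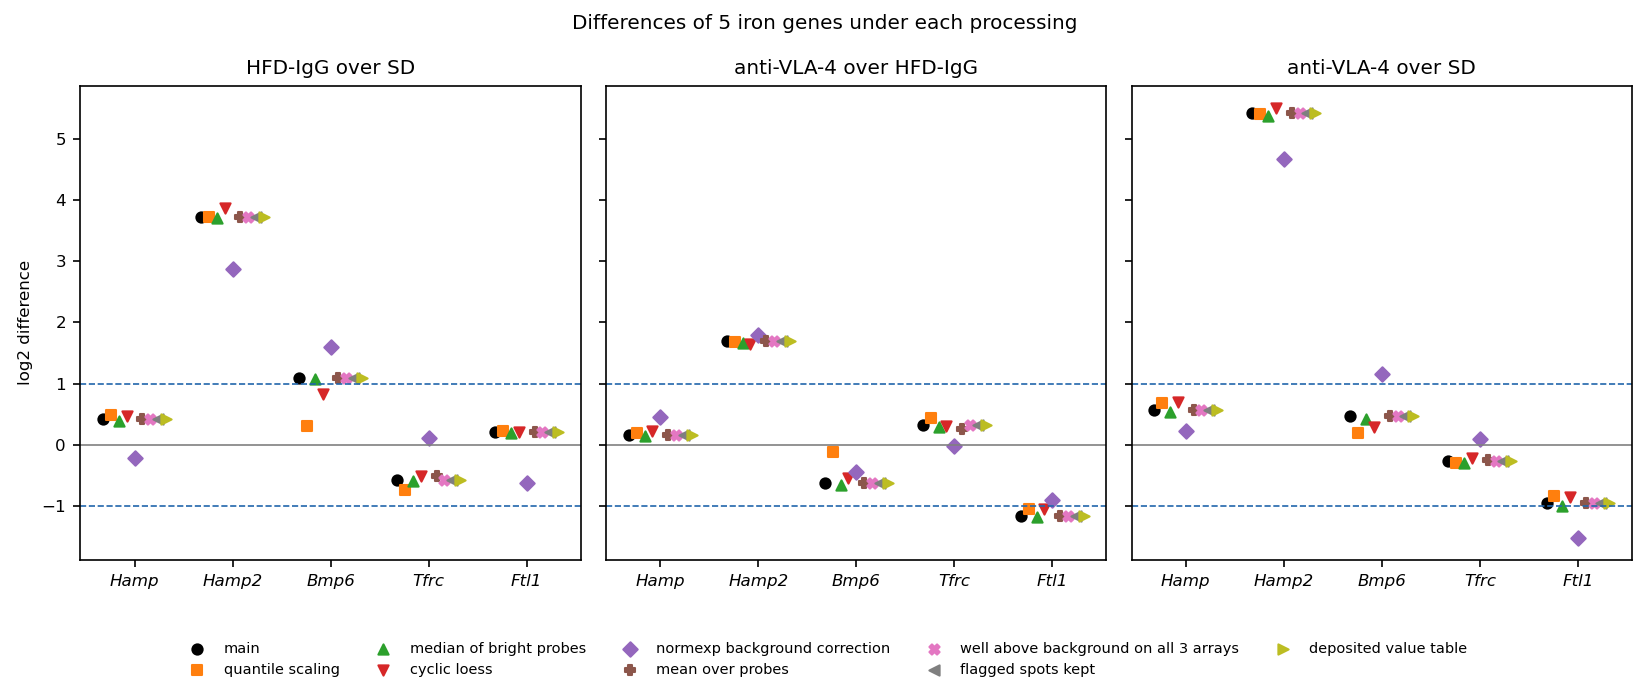
Log2 difference of Hamp, Hamp2, Bmp6, Tfrc and Ftl1 in the 3 comparisons under the reported processing (black circles) and 8 alternatives (coloured symbols). Dashed lines mark 2-fold. Hamp2 stays above the 2-fold line throughout, Bmp6 in HFD-IgG over SD spans 0.31 to 1.60, and Tfrc lies on the other side of 0 with normexp background correction.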

How the data were processed

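Hepatocyte RNA, labelled with Cy3, was read on 3 single-colour Agilent arrays. The spot intensity values were deposited as Agilent Feature Extraction 11.0.1.1 output, per the submitters' processing notes, with the background subtracted per the file headers. The same software set the flags, other values per the file headers. A deposited table gives a ratio per spot, which matched the processed signal over the array's 75th percentile within 2.0e-08 for 23206 spots, with column medians of 0.81 for anti-VLA-4, 0.80 for HFD-IgG and 0.79 for SD. Its 0 unmatched columns leave its scale known.

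Processed signals were divided by the 75th percentile over 43020 non-control spots (514 for anti-VLA-4, 500.3 for HFD-IgG and 574 for SD) and put on the log2 scale. Between 57.3% and 66.5% of spots were well above background and 0 were saturated. Flagged spots were left out, spots of a probe were averaged, and a gene took its brightest probe. For a gene not well above background on the dimmer array, a fold is given as a lower bound (at least N-fold) against the higher of that array's lowest signal well above background and the probe's own signal. No test was run, since a group has 1 array. The steps were tested on simulated data. The genes and lists were chosen with earlier results of these data known. All 10 genes are named, and of each list up to 6 genes at least 2-fold different, largest first, with up to 2 others by brightness. Others are named as chosen after their values were seen. Alternatives were normexp with offset 50, cyclic loess, quantile scaling, centring on bright probes, the mean over probes, other filters, thresholds of 1.5-fold and 3-fold, and the deposited table. Genes above the 75th percentile and probes of at most 50% purines were added after seeing the data. Gene names follow the array's annotation updated through RefSeq. Probe places within transcripts were not analysed here. Software was R 4.3.3 with limma 3.58.1, and Python 3.11.15 with numpy 2.4.6, pandas 2.3.3, Biopython 1.88 and matplotlib 3.10.9.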

Additional observations from a re-analysis of the deposited data

How the results depend on the processing

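Each of the 30 differences of the 10 genes was recomputed under 8 alternatives. Of the 240 values, 213 moved by less than the scanner error and 27 by more, 23 of them with normexp background correction, and 0 differences of at least 2-fold changed direction, while 16 values under 2-fold changed sign. For a gene with a single probe, the filters, the mean over probes and the deposited table returned the reported value by construction. Such values are among the 213, so that count does not measure stability. For HFD-IgG over SD, 2 of the 10 genes were at least 2-fold different, and 1 was with quantile scaling, with cyclic loess, at 3-fold or among genes above the 75th percentile, as Bmp6 was then lost or, among bright genes, not compared. With normexp it was 3, with Tfr2 lower at -1.09. For anti-VLA-4 over HFD-IgG, 2 were, and 1 was at 3-fold, with normexp or among probes of at most 50% purines, where Ftl1 was not counted. For anti-VLA-4 over SD, 1 was, and 2 were at 1.5-fold or with the median of bright probes (Ftl1 added) and 3 with normexp (Bmp6 at 1.15, Ftl1 at -1.53). The iron lists had 11 genes in place of 7 at least 2-fold different for anti-VLA-4 over HFD-IgG with quantile scaling.

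Over all genes, 5029 were at least 2-fold different for HFD-IgG over SD, beside 7862 at 1.5-fold, 3030 at 3-fold, 9719 with normexp, 1806 in the deposited table, 1796 with all 3 arrays above background, 536 above the 75th percentile and 1543 with at most 50% purines. The same settings gave 6876, 2275, 218, 1003, 997, 180 and 1020 in place of 4150 for anti-VLA-4 over HFD-IgG, and 5238, 1004, 6531, 1360, 1352, 419 and 1300 in place of 2313 for anti-VLA-4 over SD. The share of calls that were higher was 89.4% for HFD-IgG over SD (47.5% with quantile scaling), 10.3% for anti-VLA-4 over HFD-IgG (54.4% with quantile scaling, 31.2% with normexp) and 70.2% for anti-VLA-4 over SD (57.3% with quantile scaling, 93.5% with normexp). The median over all genes moved to -0.15 with quantile scaling and 0.11 with normexp for HFD-IgG over SD, to 0.09 with quantile scaling for anti-VLA-4 over HFD-IgG and to 0.17 with normexp for anti-VLA-4 over SD. Filters and thresholds change which genes are counted by construction, and for the scalings and normexp the cause was not tested. No paired analysis was possible because each group has 1 array, and no replicate could be left out. The spread between animals is unknown.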
